A study of Mus musculus with 6 samples.

Results

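The 10 genes described here encode 7 integrin subunits (Itga2, Itga3, Itga5, Itgav, Itgb1, Itgb5 and Itgb6) and 3 tensins (Tns1, Tns3 and Tns4), proteins through which cells hold on to the matrix around them. They were taken by name from the 24454 gene rows of the deposited table. They were chosen with their levels in these libraries known, so their differences between the groups are given as description and carry no test. The RNA came from MTflEcad, an epithelial line grown from a mammary tumour of the mouse strain MMTV-Neu, in which the promoter of a mammary tumour virus drives the Neu (ERBB2) oncogene in the mammary gland. Cells without H2O2, called PBS (0 µM), were set beside I80 cells and DI150 cells, which had received H2O2 daily at 80 µM and 150 µM. A treatment time of 7 months is given for every group, PBS included. Every group shares the MMTV-Neu tumour background, and 2 libraries were made per group. The labels name 1 line for each dose and do not say whether its libraries came from separate long-term cultures, so what the dose did and what sets a line apart cannot be told apart.

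Integrins are pairs of an alpha and a beta subunit that span the cell membrane. Outside the cell the pair binds matrix proteins such as collagens, laminins and fibronectin, and inside it the beta tail is held by talin, kindlins and tensins, which join it to actin. Beta-1 serves as the common partner of most alpha subunits in epithelium, while alpha-v pairs with several beta subunits and binds matrix proteins that carry the tripeptide RGD. Tensins bind beta tails through a PTB domain and carry an SH2 domain beside it. Tns4, also called cten, lacks the actin-binding region of the longer tensins.

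All values are CPM (each gene's reads out of 1000000 assigned ones), and log2 fold changes are those of CPM with 0.5 added, with the SE of the fit. The libraries held between 21017849 and 26608715 assigned reads. Replicates of a group correlated at r = 0.991 (PBS), 0.998 (I80) and 0.997 (DI150) across the 11428 genes tested. The epithelial label was checked against 8 markers, all of which reached an average of 1 CPM; their summed level was 6523 and 6566 CPM in PBS, 3132 and 3112 CPM in I80 and 3477 and 3156 CPM in DI150. Of the 8, Epcam was higher in both treated lines, at 583 and 629 CPM in PBS, 716 and 648 CPM in I80 and 1109 and 1002 CPM in DI150. The other 7 were lower, Cldn3 and Cldn7 only slightly, and Krt19 had no read in any I80 or DI150 library. Cldn4 was at 124 and 178 CPM in PBS, 0.936 and 0.412 CPM in I80 and 0.428 and 0.611 CPM in DI150. Krt18 and Krt8 carried most of the difference in the sum, with Krt18 at 2795 and 2742 CPM in PBS, 960 and 976 CPM in I80 and 988 and 852 CPM in DI150. The 8 markers of basal or myoepithelial cells summed to 1760 and 1716 CPM in PBS, nearly all of it Krt14, but to 1.87 and 1.98 CPM in I80 and 0.619 and 0.763 CPM in DI150. Only 2 of the 8, Krt14 and Krt15, reached an average of 1 CPM. Krt5, Krt17 and Trp63 were lower in both treated lines but at 1.09 to 1.90 CPM in PBS, and Myh11 and Cnn1 were near 0 throughout. Acta2 went the other way, at 0 and 0.0404 CPM in PBS, 0.702 and 0.948 CPM in I80 and 0.143 and 0.153 CPM in DI150. The drop of Krt14 and Krt15 runs alongside every difference between a treated line and PBS given below, and its part in them was not tested. In bulk RNA, fewer cells of a type and less RNA per cell cannot be told apart. Markers of fibroblasts summed to between 21.8 and 24.0 CPM in every library, with Pdgfrb and Thy1 at 0, but single markers moved in opposite directions. Col1a2 was at 15.3 CPM in both PBS libraries and at 0 in both treated lines, while Pdgfra was at 5.04 and 5.5 CPM in PBS, 14.5 and 15.1 CPM in I80 and 19.0 and 18.4 CPM in DI150. Endothelial markers summed to less than 1 CPM, with Kdr and Emcn at 0. Immune markers summed to 11.5 and 19.7 CPM in PBS, 1.95 and 2.14 CPM in I80 and 1.86 and 1.95 CPM in DI150, with Adgre1 and Cd3e at 0. Most of that difference was Csf1r, at 7.67 and 14.5 CPM in PBS and 0 in both treated lines. Cd68 was at 1.84 and 2.43 CPM in PBS, 1.79 and 1.98 CPM in I80 and 1.43 and 1.83 CPM in DI150, and Itgam had reads in DI150 alone.

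The 10 genes split into those with RNA at least 3.99-fold lower in both treated lines (Tns4, Itga5 and Itga2), those with RNA 1.24-fold to 3.33-fold lower (Itga3, Itgb1, Itgb6 and Tns3), Itgb5, which was lower in DI150 alone, and a pair with higher RNA (Tns1 and Itgav). All 10 passed the filter used for testing, a minimum of 1 CPM on average across the libraries. Itga5, with a mean of 1.06 CPM, passed it only through the PBS libraries and so had to differ from them. In I80 against PBS, 9 of the 10 genes passed limma's test (adjusted p under 0.05 over all 11428 genes, the threshold used throughout), as did 66.4% of all genes tested. Of the 9, 2 were higher in I80 (32.3% of all genes were called higher) and 7 lower (34.2%), and the gene that did not pass was Itgb5. In DI150 against PBS all 10 passed, beside 68.7% of all genes, 2 of them higher in DI150 (32.7% of all) and 8 lower (36.1% of all). In DI150 against I80, 9 passed, beside 43.8% of all genes, and Itga5 did not; 5 were higher in DI150 (21.9% of all) and 4 lower (21.9% of all). The libraries of the groups did not overlap for 9, 10 and 9 of the 10 genes in those 3 comparisons, while the same held for 83.7%, 83.5% and 78.5% of all genes. Both comparisons with PBS use the same PBS libraries. The median log2 change of the 10 genes was -0.71 in I80 and -0.96 in DI150 against PBS, beside -0.0020 and -0.032 for all genes, and it was 0.08 in DI150 against I80, beside 0. Since the members were chosen on these values, none of these shares is a result about them.

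**Figure D1:**
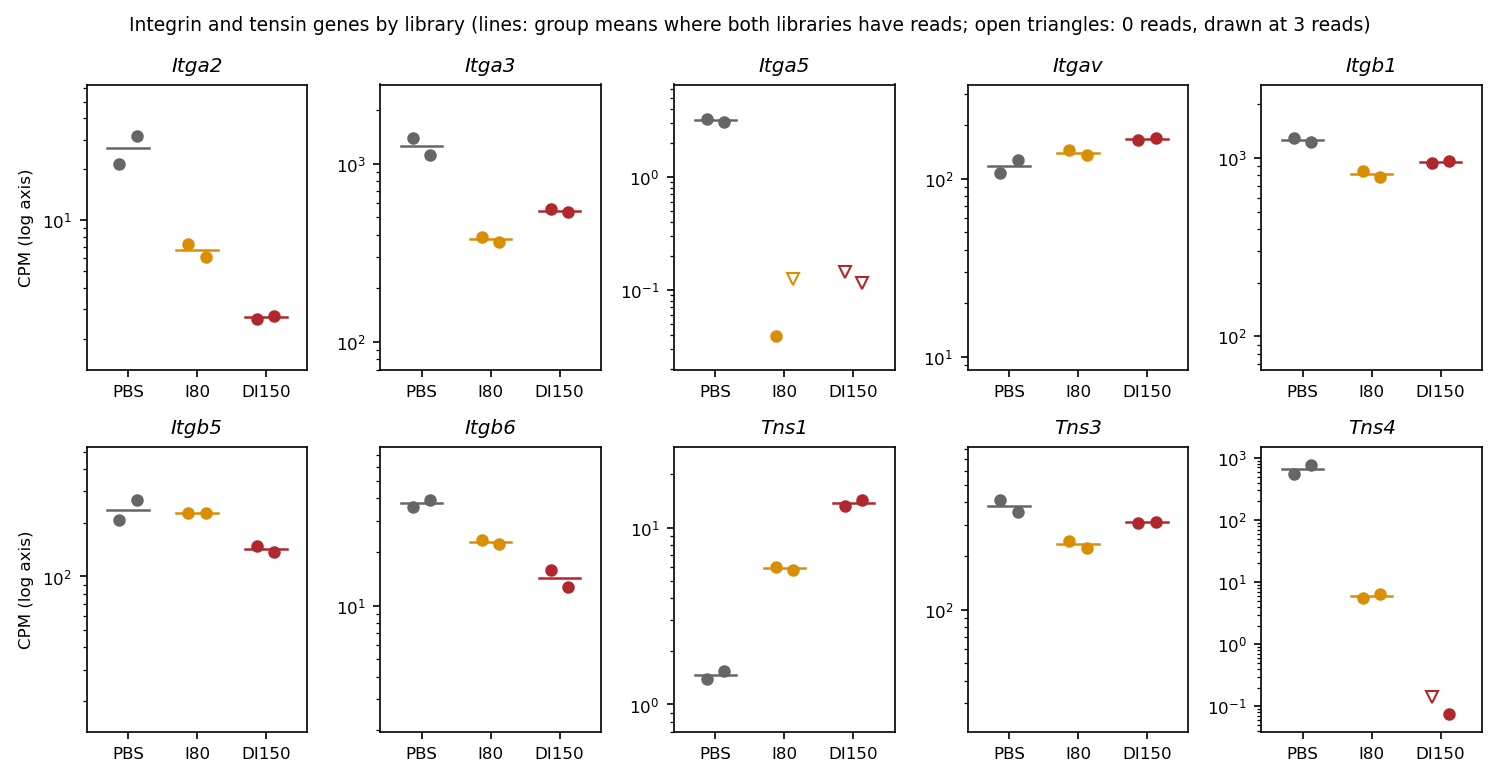
CPM of the 10 integrin and tensin genes in each library of PBS, I80 and DI150 (log axes, 1 panel per gene). Circles are libraries, lines are group means where both libraries have reads, and open triangles stand for 0 reads and are drawn at 3 reads; Tns4, Itga5 and Itga2 lie far lower in I80 and DI150 than in PBS, and Tns1 lies higher.

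Promoters of 9 of the 10 genes were matched by gene number in a RefSeq table of GRCm38.p6, which lists 11 promoters for them. The 250 bases before the start site are shown for Itga5 (chr15:103366792-103367041, minus strand), Itga2 (chr13:114932101-114932350, minus strand) and Tns1 (chr1:74124549-74124798, minus strand), the genes with the widest relative differences for which the table holds a promoter. Each is written 5′ to 3′ on the strand of its gene, and capitals mark GC boxes (GGGCGG on either strand, written CCGCCC where it lies on the other strand).
Itga5: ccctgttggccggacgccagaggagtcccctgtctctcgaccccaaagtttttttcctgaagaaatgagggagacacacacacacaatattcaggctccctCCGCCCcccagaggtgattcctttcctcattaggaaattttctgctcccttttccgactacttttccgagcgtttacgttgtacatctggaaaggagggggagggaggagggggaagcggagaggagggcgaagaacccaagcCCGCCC
Itga2: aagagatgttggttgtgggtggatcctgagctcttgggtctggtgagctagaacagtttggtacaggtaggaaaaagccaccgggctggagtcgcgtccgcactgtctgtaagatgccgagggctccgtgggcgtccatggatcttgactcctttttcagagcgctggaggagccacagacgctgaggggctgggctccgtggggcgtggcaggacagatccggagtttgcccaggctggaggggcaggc
Tns1: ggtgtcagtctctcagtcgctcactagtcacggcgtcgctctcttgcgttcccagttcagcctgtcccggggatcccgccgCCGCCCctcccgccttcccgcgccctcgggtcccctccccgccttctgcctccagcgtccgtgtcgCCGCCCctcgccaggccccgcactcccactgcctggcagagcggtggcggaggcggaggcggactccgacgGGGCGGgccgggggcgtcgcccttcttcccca
In all, 4 letter patterns were searched on both strands. The AP-1 pattern TGANTCA was in 0 of the 11 promoters, and in 6.75% of all 32851 promoters of the same length. The core of the antioxidant response element, TGACNNNGC, was in 2 of 11 (Itgb1 and Itgb6), against 10.2% of all. The TEAD pattern GGAATG was in 1 of 11 (Itgb1), against 12.6% of all, and the GC box in 7 of 11, against 32.7% of all. The Itga2 promoter held none of the 4 patterns, that of Itga5 held 2 GC boxes and that of Tns1 held 3, with G and C making up 60.8%, 55.6% and 74.4% of their bases. A match describes letters in this window, and a missing match says only that the letters are not there.

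Among the alpha subunits, the RNAs for 3 receptors of the classical matrix proteins were lower in both treated lines. Itga2 (gene 16398, chr13:114833081-114932100 of GRCm38) encodes alpha-2, which forms a collagen receptor with beta-1. It was at 21.5 and 31.7 CPM in PBS, 7.22 and 6.10 CPM in I80 and 2.62 and 2.75 CPM in DI150. No 2 groups overlapped, and DI150 lay lowest. The mean was 3.99-fold lower in I80 than in PBS (log2 -1.90 ± 0.19 SE), 9.90-fold lower in DI150 than in PBS (-3.06 ± 0.19) and 2.48-fold lower in DI150 than in I80 (-1.17 ± 0.19).

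Itga5 (gene 16402, chr15:103344286-103366791) encodes alpha-5, which with beta-1 forms the main fibronectin receptor. Its level was 3.27 and 3.03 CPM in PBS, 0.0390 and 0 CPM in I80 and 0 in both DI150 libraries, so the treated lines together held 1 read of it. PBS was clear of both treated lines, which overlapped each other. The pooled ratio of PBS to I80 was 157 (exact 95% interval 27.9 to 6256, counting error only). DI150 was at least 24.5-fold lower than PBS, with each DI150 library set at a floor of 3 reads, and no fold is given between the treated lines.

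Itga3 (gene 16400, chr11:95044475-95076844) encodes alpha-3, which with beta-1 is a laminin receptor of epithelia. It was the most abundant alpha subunit of PBS per kilobase of coding length and stood at 1388 and 1118 CPM in PBS, 386 and 366 CPM in I80 and 553 and 537 CPM in DI150. The order was not that of the dose: I80 was lowest. Its mean was 3.33-fold lower in I80 than in PBS (-1.73 ± 0.10), 2.30-fold lower in DI150 than in PBS (-1.19 ± 0.10) and 1.45-fold higher in DI150 than in I80 (0.53 ± 0.10).

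Itgav (gene 16410, chr2:83722303-83806917), the alpha subunit of the RGD receptors, went the other way by a small amount. It was at 108 and 127 CPM in PBS, 144 and 135 CPM in I80 and 164 and 169 CPM in DI150. The groups did not overlap, though the gap between I80 and PBS was smaller than the spread within PBS. The mean was 1.19-fold higher in I80 than in PBS (0.26 ± 0.09), 1.42-fold higher in DI150 than in PBS (0.51 ± 0.09) and 1.19-fold higher in DI150 than in I80 (0.25 ± 0.09). An exon of Itgav shares 634 bases with Gm13684 on the opposite strand in GENCODE M21, and how strand was used for counting is not given here, so reads of the 2 genes cannot be told apart there.

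The RNAs of the 3 beta subunits stayed within 2.62-fold of PBS in both treated lines. Itgb1 (gene 16412, chr8:128685654-128733579), the shared beta-1 subunit, was at 1293 and 1237 CPM in PBS, 841 and 788 CPM in I80 and 934 and 964 CPM in DI150. As with Itga3, I80 lay lowest and no groups overlapped. The mean was 1.55-fold lower in I80 than in PBS (-0.64 ± 0.07), 1.33-fold lower in DI150 than in PBS (-0.41 ± 0.07) and 1.16-fold higher in DI150 than in I80 (0.22 ± 0.07).

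Itgb6 (gene 16420, chr2:60598292-60722603) encodes beta-6, an epithelial partner of alpha-v that binds latent TGF-beta. It was at 36.0 and 39.0 CPM in PBS, 23.5 and 22.1 CPM in I80 and 15.8 and 12.8 CPM in DI150, with no overlap and the lowest values in DI150. The mean was 1.65-fold lower in I80 than in PBS (-0.71 ± 0.12), 2.62-fold lower in DI150 than in PBS (-1.37 ± 0.12) and 1.59-fold lower in DI150 than in I80 (-0.66 ± 0.12). Itgb5 (gene 16419, chr16:33829665-33949338) encodes beta-5, which with alpha-v binds vitronectin, and was at 206 and 267 CPM in PBS, 227 and 228 CPM in I80 and 148 and 137 CPM in DI150. The I80 libraries lay between the PBS libraries, and DI150 lay below both groups. Its mean was 1.66-fold lower in DI150 than in PBS (-0.72 ± 0.12) and 1.60-fold lower in DI150 than in I80 (-0.68 ± 0.12), while I80 against PBS gave -0.04 ± 0.12.

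The tensins differed in opposite directions. Tns4 (gene 217169, chr11:99065678-99089306) was at 544 and 754 CPM in PBS, 5.50 and 6.47 CPM in I80 and 0 and 0.0763 CPM in DI150. The groups were separated by orders of magnitude, and the DI150 libraries held 2 reads in all. The mean was 108-fold lower in I80 than in PBS (-6.63 ± 0.18). From pooled reads, PBS exceeded DI150 by a ratio of 15230 (exact 95% interval 4216 to 125767) and I80 exceeded DI150 by a ratio of 141 (38.7 to 1170).

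Tns1 (gene 21961, chr1:73910232-74124548), a long tensin with an actin-binding region, was at 1.39 and 1.54 CPM in PBS, 6.01 and 5.77 CPM in I80 and 13.3 and 14.3 CPM in DI150. All groups were apart and their order was that of the dose. The mean was 4.02-fold higher in I80 than in PBS (1.70 ± 0.13), 9.44-fold higher in DI150 than in PBS (2.87 ± 0.13) and 2.35-fold higher in DI150 than in I80 (1.16 ± 0.13). Tns3 (gene 319939, chr11:8431652-8664758), another long tensin, was at 410 and 352 CPM in PBS, 242 and 222 CPM in I80 and 306 and 310 CPM in DI150. I80 was lowest and no groups overlapped. The mean was 1.64-fold lower in I80 than in PBS (-0.71 ± 0.09), 1.24-fold lower in DI150 than in PBS (-0.30 ± 0.09) and 1.33-fold higher in DI150 than in I80 (0.41 ± 0.09). Of the 10 genes, 3 lie on chromosome 11 (Itga3, Tns3 and Tns4) and 2 on chromosome 2 (Itgav and Itgb6).

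The other 21 genes of the integrin and tensin families were set beside them, of which 8 averaged at least 1 CPM and were tested. In I80 against PBS, 3 of the 8 rose, 3 fell and 2 did not pass the test, beside 66.4% of all genes called. In DI150 against PBS 5 rose and 3 fell, beside 68.7% of all genes. Of these 5, Itga2b passed the filter only through DI150, so its rise was set in advance. Itgb3, the beta-3 subunit that pairs with alpha-v, had the widest rise, to 128 and 115 CPM in I80 and 131 and 130 CPM in DI150, against 3.23 and 9.34 CPM in PBS. That is 19.4-fold higher in I80 (log2 4.33 ± 0.37, limma adjusted p = 3.24e-05) and 20.7-fold higher in DI150 (4.43 ± 0.37, adjusted p = 2.69e-05), and DI150 differed from I80 by 0.10 ± 0.37 (adjusted p = 0.852). The PBS libraries differ for this gene: the log2 change is 3.63 in I80 and 3.73 in DI150 without PBS replicate 1, and 5.03 and 5.13 without PBS replicate 2.

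Other alpha subunits rose where Itga2, Itga3 and Itga5 were lower. Itga6, which forms laminin receptors with beta-1 and with beta-4, was at 810 CPM in both I80 libraries and 421 and 429 CPM in DI150, against 354 and 362 CPM in PBS. It rose by 1.18 ± 0.06 in I80 (limma adjusted p = 2.34e-06) and by 0.25 ± 0.06 in DI150 (adjusted p = 0.00785). Itga8, which with beta-1 binds nephronectin, rose to 656 and 627 CPM in I80 and 435 and 463 CPM in DI150, against 148 and 183 CPM in PBS (1.96 ± 0.10, adjusted p = 2.43e-06, and 1.45 ± 0.10, adjusted p = 1.11e-05). Its exons share 372 bases with an antisense gene in the table, E030013I19Rik, so reads there cannot be assigned to one of them. The platelet subunit Itga2b and the collagen-binding Itga10 rose in DI150, to 2.05 and 1.64 CPM against 0.489 and 0.687 CPM in PBS (1.11 ± 0.20), and to 4.57 and 3.89 CPM against 1.5 and 1.17 CPM in PBS (1.37 ± 0.17, adjusted p = 0.000267). In I80 they had log2 changes of 0.24 (adjusted p = 0.304) and 0.38 (adjusted p = 0.0869); without PBS replicate 1, Itga10 passed there with 0.51 (adjusted p = 0.0245), and with quantile normalization both passed, with 0.89 (adjusted p = 0.00316) for Itga2b and 0.79 (adjusted p = 0.0139) for Itga10. Itga2b averaged under 1 CPM in PBS and in I80 and passed the filter only through DI150. It had to be higher there, so its DI150 differences are given without a p. Itga10 also shares 1739 exon bases with Gm42957 on the same strand.

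Itgb4, Itgb8 and Tns2 fell in both treated lines. Itgb4, the beta-4 subunit of hemidesmosomes, was at 437 and 442 CPM in I80 and 337 and 320 CPM in DI150, against 663 and 797 CPM in PBS (-0.73 ± 0.09, limma adjusted p = 0.000291, and -1.15 ± 0.09, adjusted p = 2.37e-05); its exons share 537 bases with B230344G16Rik on the opposite strand. Itgb8, another partner of alpha-v, was at 7.34 and 5.48 CPM in I80 and 5.38 and 5.76 CPM in DI150, against 11.6 and 12.9 CPM in PBS (-0.90 ± 0.16, adjusted p = 0.00168, and -1.07 ± 0.16, adjusted p = 0.000648). Tns2, the remaining tensin, was at 10.2 and 10.0 CPM in I80 and 18.9 and 19.2 CPM in DI150, against 39.3 and 35.5 CPM in PBS (-1.84 ± 0.10, adjusted p = 2.98e-06, and -0.95 ± 0.10, adjusted p = 8.98e-05). Between the treated lines, Itga2b (0.87), Itga10 (0.98, adjusted p = 0.0036) and Tns2 (0.89, adjusted p = 0.0005) were higher in DI150 than in I80. Itga6 (-0.93, adjusted p = 5.15e-05), Itga8 (-0.51, adjusted p = 0.00593) and Itgb4 (-0.42, adjusted p = 0.00932) were lower in DI150. The filter had set the Itga2b difference in advance, so neither its call nor the loss of that call is a result about it. Leaving out 1 library lost limma's call of Itga2b (without I80 replicate 1, I80 replicate 2 or DI150 replicate 1, log2 difference 0.74 to 0.87), which DESeq2 did not call either. It also lost that of Itga8 (without I80 replicate 1, -0.48, adjusted p = 0.0549) and of Itgb4 (without I80 replicate 1, I80 replicate 2 or DI150 replicate 3, -0.43 to -0.38, adjusted p 0.0637 to 0.0713). The 13 family genes that were not tested averaged under 1 CPM over all 6 libraries, and 4 of them (Itga4, Itgad, Itgax and Itgb2l) had no read in any library. Some were above that level in a single group. Itgb2 was at 1.69 and 2.47 CPM in PBS, 0.0780 and 0.0824 CPM in I80 and 0.0476 and 0 CPM in DI150. Itga1 was at 0.263 and 0.364 CPM in PBS, 1.37 and 1.32 CPM in I80 and 0.238 and 0.572 CPM in DI150.

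**Figure D2:**
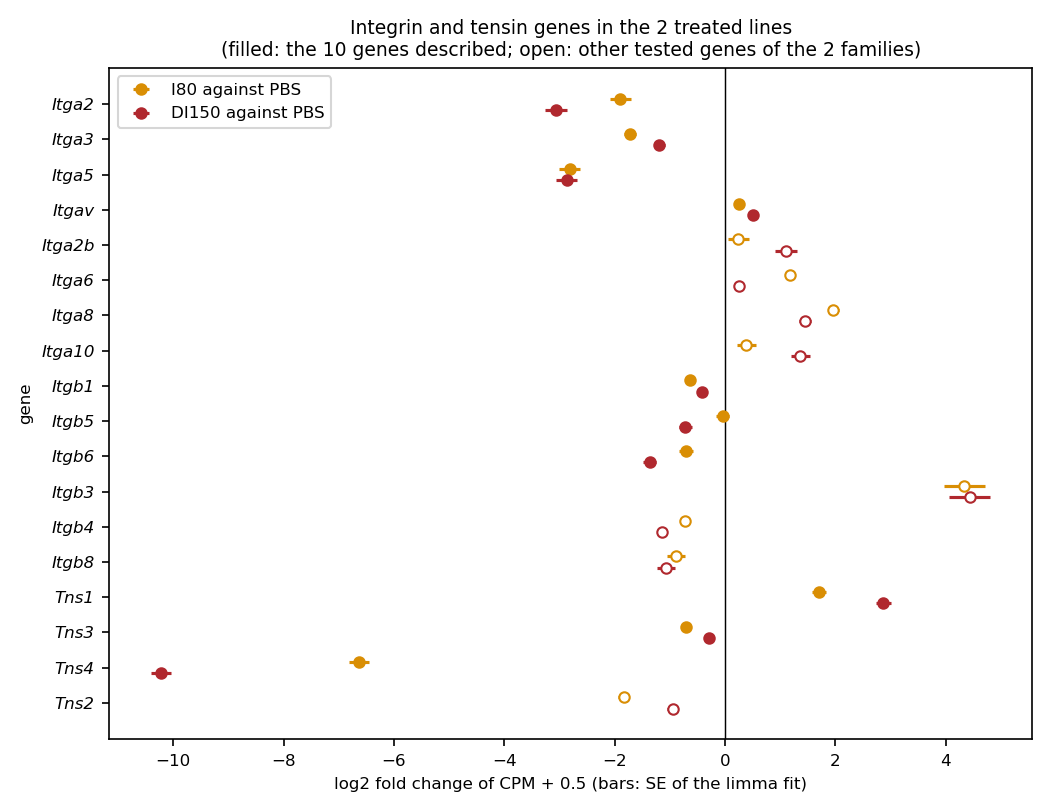
Log2 fold change of CPM + 0.5 (x axis) in I80 and DI150 against PBS for the 10 genes described (filled) and the 8 other tested integrin and tensin genes (open), with bars for the SE of the limma fit. Tns4 lies furthest left, at -6.63 in I80 and -10.22 in DI150, and Itgb3 furthest right, at 4.33 and 4.43; the fitted values of Itga5 and of Tns4 in DI150 depend on the 0.5 added, since those groups hold 2 reads or fewer.

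Levels were compared between genes as CPM per kilobase of coding length. Itgb1 ranked highest of the 14 tested integrins in every group, at 540 and 517 in PBS, with 351 and 329 in I80 and 390 and 403 in DI150. In PBS it was followed by Itga3 (433 and 349), Itgb4 (121 and 146), Itga6 (108 and 110) and Itgb5 (84.2 and 109), of which Itga6 and Itgb5 overlap. In I80 the order below Itgb1 was Itga6 (248 and 248), Itga8 (206 and 197) and Itga3 (121 and 114), with no overlap among them. In DI150 it was Itga3 (173 and 168), Itga8 (137 and 145) and Itga6 (129 and 131), and below these Itgb4 (61.8 and 58.7) and Itgb5 (60.3 and 55.9) overlapped. Itga2 was the 9th of 14 in PBS and the 12th in DI150, and Itga5 was last in both treated lines.

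Within the alpha subunits that pair with beta-1, alpha-3 RNA was a smaller part of the mix in the treated lines than in PBS. Of the summed CPM per coding kilobase of Itga2, Itga3, Itga5, Itga6, Itga8, Itga10 and Itgav, Itga3 made up 68.8% and 61.5% in PBS, with 19.4% and 18.9% in I80 and 35.0% and 33.5% in DI150. Itga6 made up 17.2% and 19.5% in PBS, with 39.8% and 41.0% in I80 and 26.2% in both DI150 libraries. Itga8 made up 7.37% and 10.1% in PBS, with 33.1% and 32.6% in I80 and 27.7% and 29.1% in DI150. The summed level of these 7 alpha subunits was 630 and 568 in PBS, with 623 and 604 in I80 and 492 and 500 in DI150, so PBS and I80 overlapped in the sum while their makeup differed. Per kilobase of all exons they did not overlap in the sum, which was 316 and 278 in PBS, with 261 and 253 in I80 and 219 and 221 in DI150. On that scale Itga3 took a mean share of 73.7% in PBS, with 25.6% in I80 and 43.3% in DI150. The Itga6 and Itgav RNA also serves pairs without beta-1.

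The beta subunits that pair with alpha-v, leaving out beta-1, changed in makeup as well. Itgb5 made up 79.5% and 80.7% of their summed CPM per coding kilobase in PBS, with 58.0% and 60.5% in I80 and 48.3% and 47.1% in DI150. Itgb3 made up 1.29% and 2.93% in PBS, with 33.8% and 31.8% in I80 and 44.4% and 46.3% in DI150. Itgb6 made up 14.4% and 12.2% in PBS, with 6.21% and 6.09% in I80 and 5.36% and 4.56% in DI150. The Itgb3 share was thus higher in both treated lines, and in DI150 it lay just below that of Itgb5. Per kilobase of all exons instead of coding length, the mean share of Itgb3 was 1.37% in PBS, 23.3% in I80 and 34.2% in DI150, where Itgb5 held 61.9%. On that scale the mean share of Itgb6 was 7.20% in PBS, 3.62% in I80 and 3.10% in DI150.

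Tensin RNA was mostly Tns4 in PBS and mostly Tns3 in both treated lines. Tns4 made up 71.4% and 80.0% of the summed tensin CPM per coding kilobase in PBS, with 4.24% and 5.36% in I80 and 0% and 0.0463% in DI150. Tns3 made up 26.0% and 18.1% in PBS, with 90.2% and 88.8% in I80 and 91.2% and 91.0% in DI150. Summed tensin RNA was also lower in the treated lines, at 365 and 451 CPM per coding kilobase in PBS, with 62.1 and 57.9 in I80 and 77.8 and 78.9 in DI150. Tns1, although 9.44-fold higher in DI150 than in PBS, made up 0.0673% and 0.0601% of tensin RNA in PBS, with 1.71% and 1.76% in I80 and 3.02% and 3.20% in DI150.

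**Figure D3:**
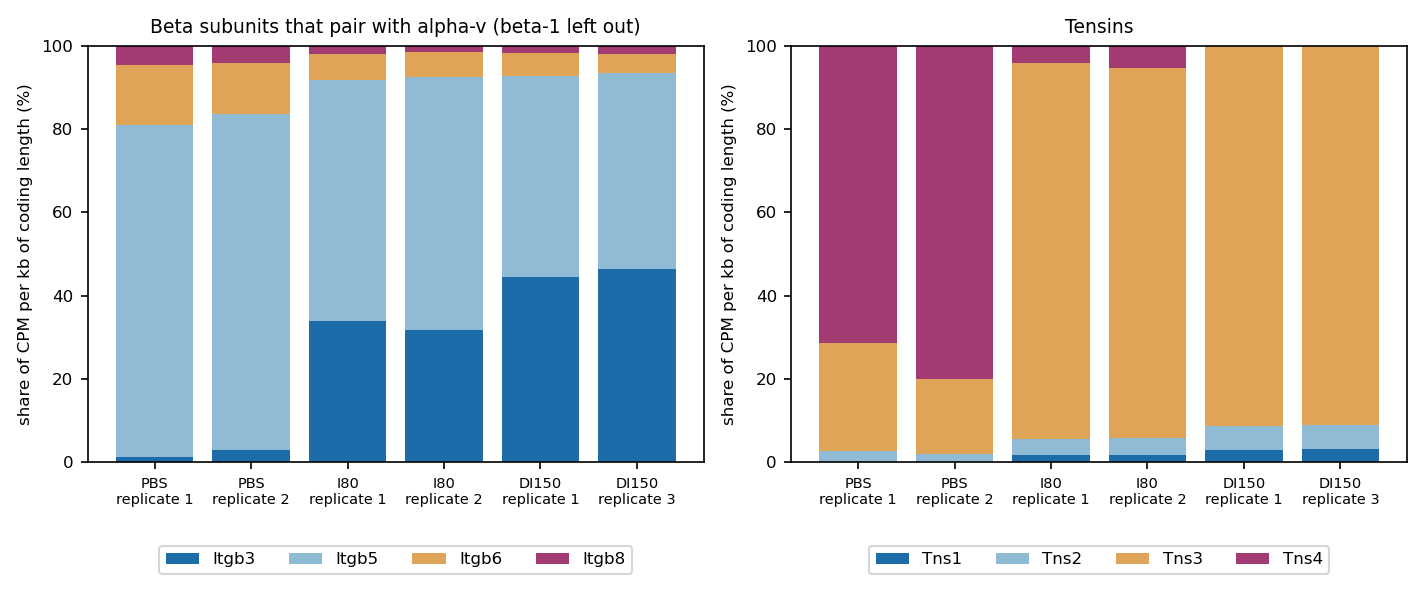
Share of the summed CPM per kilobase of coding length (y axis, percent) taken by each beta subunit that pairs with alpha-v, beta-1 left out (left), and by each tensin (right), for the 6 libraries. Itgb3 takes 1.29% to 2.93% in PBS and 31.8% to 46.3% in the treated lines, and Tns4 takes 71.4% to 80.0% in PBS and at most 5.36% in the treated lines.

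The genes with the pattern across the 6 libraries most like that of Itga5 and of Tns4 were found by the root mean square difference of log2(CPM + 0.5) about each gene's mean. Tested genes outside the 10 were searched, except those with predicted-gene or clone-type names. For Itga5 they were Lrig3 (0.044), Zfp334 (0.081) and Zfp946 (0.083), all of them genes near 3 CPM in PBS and with at most 1 read in the treated lines. Tns4 was nearest to Acap1 (0.82), Wnt10a (0.999) and S100a14 (1.14). Acap1 was at 254 and 304 CPM in PBS, 2.03 and 1.77 CPM in I80 and 0.238 and 0.153 CPM in DI150.

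The partners of integrins and tensins were read from 8 lists, 133 genes in all, of which 112 were tested. In I80 against PBS 39 of them rose, 45 fell and 28 did not pass. In DI150 against PBS 44 rose, 40 fell and 28 did not pass, and in DI150 against I80 42 were higher, 25 lower and 45 did not pass. Of all genes tested, 32.3% were called higher and 34.2% lower in I80 against PBS, 32.7% and 36.1% in DI150 against PBS, and 21.9% each way in DI150 against I80, and the counts of each list below stand beside these shares. Of the 112, 3 passed the filter only through PBS (Tnc, Col1a2 and Col5a1) and 1 only through the treated lines (Arhgef6), so these 4 had to differ from PBS and are given without a p.

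Among the ligands, a list of proteins with an RGD site and of the CCN proteins Ccn1 and Ccn2, which bind integrins without one, mostly fell. Of 9 tested, 2 rose and 7 fell in I80, and 1 rose and 7 fell in DI150, with median log2 changes of -1.78 and -2.25; without Ccn1 and Ccn2, 2 of 7 rose and 5 fell in I80, and 1 rose and 5 fell in DI150. Tnc, encoding tenascin-C, fell to 0.351 and 0.247 CPM in I80 and 0.285 and 0.114 CPM in DI150, against 10.3 and 19.7 CPM in PBS. Its fall was set in advance by the filter, and it is counted among the genes that fell in all these counts. Edil3, whose RGD site is bound by alpha-v integrins, fell 15.1-fold in I80 (limma adjusted p = 4.28e-06) and 22.2-fold in DI150 (adjusted p = 2.21e-06). Mfge8, another ligand of alpha-v with beta-3 or beta-5, rose to 2035 and 1993 CPM in I80 and 1772 and 1642 CPM in DI150, against 224 and 326 CPM in PBS (2.89 ± 0.16, adjusted p = 3.02e-06, and 2.65 ± 0.16, adjusted p = 4.37e-06). Npnt, encoding nephronectin, was at 175 and 169 CPM in I80, against 100 and 153 CPM in PBS (0.47 ± 0.17, adjusted p = 0.0389), and at 97.8 and 93.5 CPM in DI150 (-0.37 ± 0.17, adjusted p = 0.0834). Its call in I80 was lost without any 1 library other than PBS replicate 2 (log2 change between 0.17 and 0.49, adjusted p between 0.0512 and 0.141), and also with no expression filter (adjusted p = 0.0749) and in a fit of the 4 libraries compared (adjusted p = 0.0691). In DI150 it passed with edgeR (-0.40, adjusted p = 0.0474), with DESeq2 (-0.39, adjusted p = 0.0296) and without PBS replicate 1 (-0.67, adjusted p = 0.000712).

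Collagen and laminin genes split: of 13 tested, 6 rose and 5 fell in each treated line, with medians of -0.04 in I80 and 0.07 in DI150. The fibrillar collagen Col1a2 had no read in either treated line, against 15.3 CPM in both PBS libraries, at least 127-fold lower in I80 and at least 119-fold lower in DI150 (floor of 3 reads per library). Col5a1 had no read in I80 and 1 in DI150, against 12.8 and 14.3 CPM in PBS, at least 113-fold lower in I80, with a pooled ratio of PBS to DI150 of 638 (exact 95% interval 114 to 25250). The falls of Col1a2 and Col5a1 were set in advance by the filter and are counted among the 5 in each line. Both sit at the low end of the list, so the medians are the same at the floor. Lama4, encoding laminin alpha-4, rose to 211 and 195 CPM in I80 and 262 and 287 CPM in DI150, against 49.6 and 59.6 CPM in PBS (limma adjusted p = 2.61e-06 and 8.23e-07). Lama3, whose chain of laminin-332 is bound by alpha-3, rose 1.55-fold in I80 (adjusted p = 0.00982) and 1.97-fold in DI150 (adjusted p = 0.00114); without I80 replicate 1 the I80 call was lost (0.62, adjusted p = 0.0592). Col1a1 rose 4.22-fold in I80 (adjusted p = 0.000218) and 1.77-fold in DI150 (adjusted p = 0.0213), and lost the DI150 call with no expression filter (adjusted p = 0.0507) and without DI150 replicate 1 (0.71, adjusted p = 0.1) or replicate 3 (0.78, adjusted p = 0.0743).

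Alpha-v with beta-6 or beta-8 binds latent TGF-beta, though not every gene of the latent TGF-beta list encodes a part of a complex so bound. Of 7 tested genes on it, 1 rose and 5 fell in I80, and 2 rose and 4 fell in DI150 (medians -1.44 and -0.66). Tgfb3 rose 3.66-fold in I80 and 2.97-fold in DI150 (limma adjusted p = 1.03e-06 and 2.48e-06). Tgfb1 fell to 4.57 and 4.66 CPM in I80 and 13.3 and 12.8 CPM in DI150, against 20.5 and 24.5 CPM in PBS (adjusted p = 4.23e-06 and 0.00105). The genes named as latent TGF-beta binding proteins differed among themselves. Ltbp2 fell 5.03-fold in I80 and 1.60-fold in DI150 (adjusted p = 9.46e-06 and 0.00623), and Ltbp3 fell 4.01-fold and 1.86-fold (adjusted p = 8.53e-07 and 5.57e-05). Ltbp1 fell 4.19-fold in DI150 (adjusted p = 1.61e-06), and its 1.28-fold fall in I80 (adjusted p = 0.0166) was lost without any 1 of the PBS or I80 libraries (log2 change between -0.38 and -0.32, adjusted p between 0.0618 and 0.0951). Ltbp4 fell 2.95-fold in I80 (adjusted p = 4.53e-05) and rose 1.70-fold in DI150 (adjusted p = 0.00153).

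Inside the cell, of 14 tested integrin activators and tail binders 7 rose and 4 fell in I80, and 5 rose and 6 fell in DI150 (medians 0.36 and -0.02). Rap1a, a small GTPase that acts through talin, rose 2.87-fold in I80 and 3.77-fold in DI150 (limma adjusted p = 3.1e-06 and 8.6e-07). The talin-binding Kank1 rose 1.80-fold and 2.97-fold (adjusted p = 8.51e-05 and 3.02e-06). Fermt1, the kindlin of epithelia, went opposite ways: it rose to 250 and 227 CPM in I80 and fell to 104 and 90.5 CPM in DI150, against 123 and 138 CPM in PBS (adjusted p = 0.000129 and 0.00508). Fermt3, the kindlin of blood cells, fell 2.10-fold in DI150 (adjusted p = 0.00825), a call lost with quantile normalization (-0.38, adjusted p = 0.123) and in DESeq2 (adjusted p = 0.0553). Mdfi, which is not a known tail binder, is counted among the 14 and among the 4 that fell in I80. It fell 2.59-fold there (adjusted p = 0.000349).

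Of 32 tested scaffold proteins and kinases of focal adhesions, 12 rose and 10 fell in I80, and 15 rose and 7 fell in DI150 (medians 0.12 and 0.16). Arhgef6, an exchange factor that binds parvin, rose to 102 and 95.2 CPM in I80 and 32.2 and 32.7 CPM in DI150, against 0.113 and 0.768 CPM in PBS (6.81 ± 0.29 and 5.22 ± 0.29). Its rise was set in advance by the filter and is counted among the 12 and the 15. The actin regulator Enah rose 4.54-fold and 6.22-fold (limma adjusted p = 6.67e-07 and 2.39e-07). Cav1, encoding caveolin-1, fell 5.28-fold and 3.34-fold (adjusted p = 1.33e-05 and 6.53e-05), and the kinase gene Pak1 fell 2.46-fold and 2.82-fold (adjusted p = 6.69e-06 and 2.88e-06). Palld, an actin-bundling protein of stress fibres, fell to 5.38 and 3.46 CPM in I80, against 34.6 and 51.0 CPM in PBS (-3.14 ± 0.22, adjusted p = 1.28e-05), and was at 46.3 and 47.7 CPM in DI150, between the PBS libraries (0.16 ± 0.22, adjusted p = 0.548).

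Of 8 tested binding partners of tensins, 1 rose and 4 fell in each treated line (medians -0.19 in I80 and -0.25 in DI150). Dlc1, a GTPase-activating protein that binds tensin SH2 domains, fell to 7.10 and 5.81 CPM in I80 and 15.6 and 12.4 CPM in DI150, against 40.6 and 48.9 CPM in PBS (limma adjusted p = 4.83e-06 and 6.26e-05). Its relative Stard13 rose 2.01-fold in DI150 (adjusted p = 4.07e-05) and had a log2 change of -0.03 in I80 (adjusted p = 0.775). Egfr, the receptor whose breakdown Tns4 is known to slow in human cells, fell to 12.1 and 11.1 CPM in I80 and 2.66 and 2.25 CPM in DI150, against 25.5 and 32.1 CPM in PBS (adjusted p = 0.000191 and 1.13e-06). The ubiquitin ligase gene Cbl rose 1.44-fold in I80 (adjusted p = 0.00232) and had a log2 change of 0.15 in DI150 (adjusted p = 0.209), where it passed with 0.28 without PBS replicate 1 (adjusted p = 0.0258).

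Of 13 tested tetraspanins and other membrane partners, 4 rose and 4 fell in I80, and 6 rose and 3 fell in DI150, with medians of 0.10 and 0.23. Sdc4, the fibronectin co-receptor syndecan-4, rose 2.31-fold in I80 and 2.34-fold in DI150 (limma adjusted p = 7.56e-06 and 6.33e-06). Plaur, the urokinase receptor, rose 2.08-fold and 5.29-fold (adjusted p = 6.57e-05 and 8.18e-07). The hyaluronan receptor gene Cd44 fell 2.07-fold and 2.73-fold (adjusted p = 0.000202 and 3.22e-05), and the integrin-associated Cd47 fell 1.69-fold and 1.85-fold (adjusted p = 9.97e-05 and 4.14e-05). Cd63, a tetraspanin of endosomes, fell to 30.2 CPM in both I80 libraries and rose to 167 and 140 CPM in DI150, against 67.5 and 64.7 CPM in PBS (adjusted p = 2.93e-05 and 1.85e-05).

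Of 16 tested genes of integrin trafficking, 6 rose and 6 fell in I80, and 8 rose and 4 fell in DI150 (medians -0.02 and 0.31). Dab2, a clathrin adaptor that binds beta tails, rose to 238 and 202 CPM in I80 and 568 and 451 CPM in DI150, against 58.3 and 48.4 CPM in PBS (limma adjusted p = 9.64e-06 and 7.83e-07). Snx27, a sorting nexin of the recycling route, rose 3.02-fold and 3.95-fold (adjusted p = 1.16e-06 and 3.76e-07). Acap1, an adaptor in beta-1 recycling and, of the genes searched, the nearest in pattern to Tns4, fell 147-fold in I80 and 1429-fold in DI150 (adjusted p = 5.82e-08 and 2.35e-08). The DI150 fold rests on 5 and 4 reads, and the fitted log2 changes of Acap1 were -6.86 in I80 and -8.65 in DI150. Rab11fip1, which couples Rab11 to integrin cargo, fell 1.93-fold and 2.08-fold (adjusted p = 4.78e-05 and 2.5e-05).

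**Figure D4:**
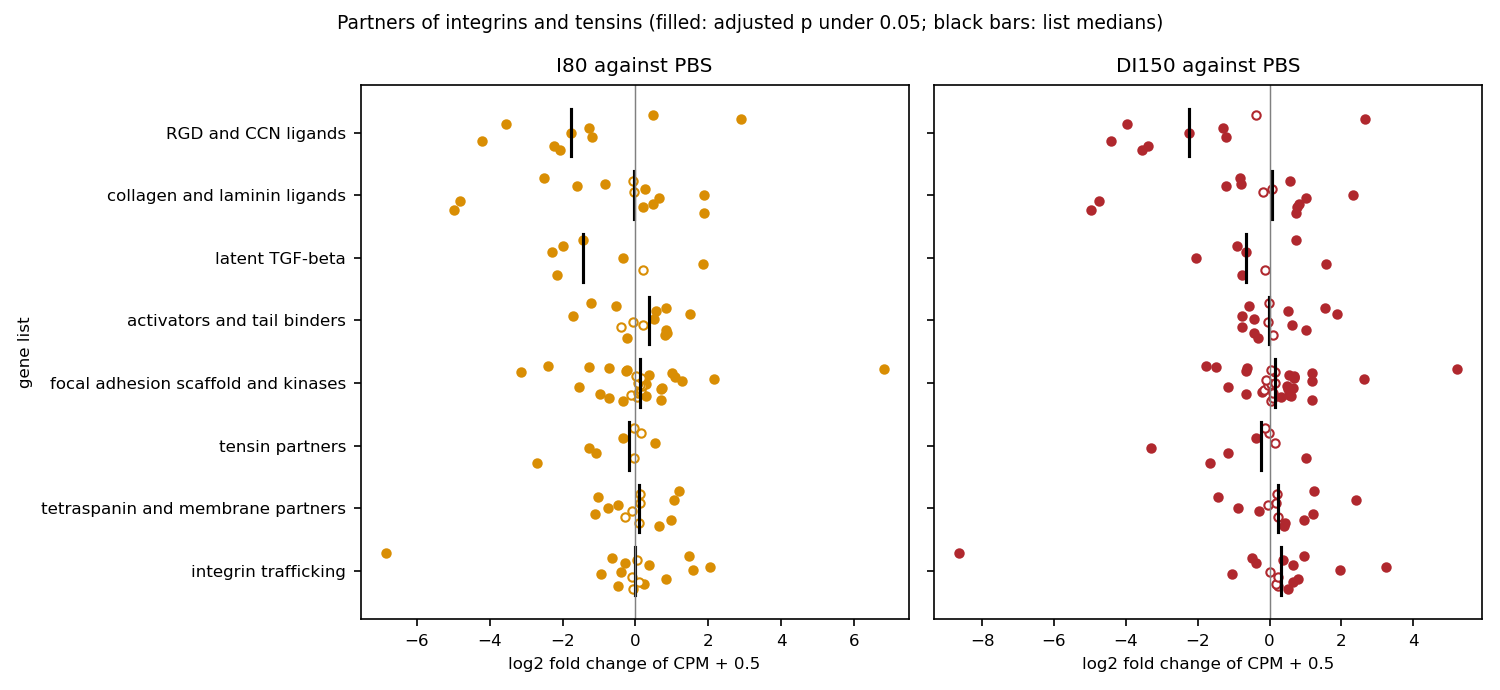
Log2 fold change of CPM + 0.5 (x axis) for the 112 tested partner genes in 8 lists (rows), in I80 against PBS (left) and DI150 against PBS (right). Each point is a gene, filled where limma's adjusted p is under 0.05, and black bars are list medians; the bar of the RGD and CCN ligands lies furthest left, at -1.78 in I80 and -2.25 in DI150.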

How the data were processed

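Total RNA for 6 libraries (2 each of PBS, I80 and DI150) was depleted of ribosomal RNA and sequenced as single reads, per the labels' protocols. STAR and mm10 are listed, without version or role, per the submitters' processing notes. What counted the reads, with which annotation and strand setting, is not given in the sources used here. A single CPM table was deposited by the authors, per gene number and scaled to the total of assigned reads. The labels speak of biological duplicates and do not say whether these were separate long-term cultures, so p-values reflect only how far these libraries differ. A DI150 column carries the number 3 where the labels number the samples 1 and 2, and it was used as a DI150 replicate with no label number of its own. The number of columns left unused was 0.

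Each column's low values were whole multiples of 1 read (0.0376 to 0.0476 CPM), and whole reads within 1e-06 were recovered for 100.0% of 146724 values. On these counts recovered from the deposited CPM, edgeR 4.0.16 called 7610 genes in I80 against PBS, 7852 in DI150 against PBS and 4997 in DI150 against I80. Gene numbers were matched to RefSeq (GRCm38.p6) for 24374 of 24454 rows, and the unmatched rows held 1.21% to 1.52% of reads.

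The main test was limma 3.58.1 (R 4.3.3, lmFit and eBayes with a trend) on log2(CPM + 0.5), which understates changes of low genes, for genes averaging 1 CPM or more. All 6 libraries were fitted together without covariates, with 3 residual and 4.52 prior degrees of freedom, two-sided, with Benjamini-Hochberg adjustment over 11428 genes. Folds are ratios of mean CPM. A library at 0 was set at a floor of 3 reads, and with 1 to 3 reads in a group the pooled ratio has an exact 95% interval, both covering counting error only. Coding and exon lengths came from GENCODE M21, in place of the protein lengths first planned.

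The genes and lists were chosen with earlier results of these data known. Named genes are the 10, every other tested integrin or tensin, and in each list the 2 called genes that rose most and the 2 that fell most in each comparison with PBS. The 3 genes nearest in pattern to the integrin and the tensin with the widest mean change are also named, and 1 gene that this rule names is not reported here. Alternatives were pseudocounts of 0.1 and 2, no filter, TMM, median-of-ratios and quantile scaling, edgeR, DESeq2 1.42.0, only the 4 libraries compared, a replicate block, each library left out and, chosen after seeing the data, levels per kilobase of exon.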

Additional observations from a re-analysis of the deposited data

Results flagged for a closer look

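For 33 of the genes named, the change from PBS differed between DI150 and I80 by limma's test of that difference (adjusted p under 0.05 over all genes). PBS cancels out of it, so each value is the direct log2 difference of DI150 minus I80, with 2 libraries in each line. The 10 integrins and tensins first described were chosen on these contrasts and were left out of this reading. Of all genes tested, 43.8% passed the same test. The partner genes were named for the largest changes from PBS, so the count of 33 is not read as a result about them. Itga2b is among the 33 and passed the filter only through DI150, so its difference was set in advance.

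In the integrin and tensin families the difference was 0.87 for Itga2b, -0.93 for Itga6, -0.51 for Itga8, 0.98 for Itga10, -0.42 for Itgb4 and 0.89 for Tns2. Among ligands it was -0.84 for Npnt, -1.15 for Col1a1 and 0.44 for Lama4. The genes of latent TGF-beta differed by -0.30 for Tgfb3, 1.40 for Tgfb1, -1.71 for Ltbp1, 1.63 for Ltbp2, 1.10 for Ltbp3 and 2.17 for Ltbp4. Of these, Ltbp4 fell in I80 and rose in DI150 against PBS. Activators and tail binders differed by 0.39 for Rap1a, -1.29 for Fermt1 and 0.71 for Kank1, with Fermt1 rising in I80 and falling in DI150. Mdfi, in the same list though not a known tail binder, differed by 1.19. In focal adhesion scaffolds the difference was -1.59 for Arhgef6, 0.45 for Enah, 3.30 for Palld and 0.64 for Cav1. For partners of tensins it was -0.37 for Cbl, 1.06 for Dlc1, -2.03 for Egfr and 1.03 for Stard13. Membrane partners differed by 1.34 for Plaur, 2.32 for Cd63 and -0.41 for Cd44, with Cd63 falling in I80 and rising in DI150. Trafficking genes differed by 1.2 for Dab2, 0.39 for Snx27 and -1.79 for Acap1. Some of these calls were lost without 1 library. Without I80 replicate 1 they were those of Tgfb3 (-0.25, adjusted p = 0.159), Rap1a (0.34, adjusted p = 0.083), Cbl (-0.31, adjusted p = 0.149), Cd44 (-0.41, adjusted p = 0.136), Itga2b, Itga8 and Itgb4. Without I80 replicate 2 they were those of Lama4 (0.38, adjusted p = 0.0913), Tgfb3 (-0.35, adjusted p = 0.0724), Enah (0.38, adjusted p = 0.0588), Cav1 (0.48, adjusted p = 0.143), Cbl (-0.44, adjusted p = 0.0632), Cd44 (-0.41, adjusted p = 0.136), Snx27 (0.34, adjusted p = 0.0596), Itga2b and Itgb4. Without DI150 replicate 1 they were those of Cav1 (0.37, adjusted p = 0.0989), Cbl (-0.37, adjusted p = 0.0948) and Itga2b. Without DI150 replicate 3 they were those of Lama4 (0.37, adjusted p = 0.0783), Tgfb3 (-0.20, adjusted p = 0.124), Rap1a (0.34, adjusted p = 0.0604), Cbl (-0.37, adjusted p = 0.0889), Cd44 (-0.28, adjusted p = 0.19) and Itgb4. Cav1 also lost its call without PBS replicate 1 or PBS replicate 2 (0.64 in each), and in a fit of only the 4 libraries compared (0.64, adjusted p = 0.061). With no expression filter Cd44 lost its call (-0.41, adjusted p = 0.0671), and Arhgef6 was not called by DESeq2 (-1.60, adjusted p = 0.0936). The values of the 3 family genes stand in the account of their family.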

How the results depend on the processing

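Counts of called genes stayed within 1.5 times of the main value under every alternative in both comparisons with PBS. In DI150 against I80, leaving out 1 library gave 2487 to 5972 called genes (5008 with all), 3 to 6 of the other integrins and tensins (6 with all), 5 to 9 of the 10 integrins and tensins described (9 with all) and 42 to 73 of the partner genes (67 with all), and the cause was not tested. The same fits gave 5978 to 7616 called genes in I80 against PBS and 6592 to 7874 in DI150 against PBS. With the replicate number as a block, 7173 genes were called in I80 against PBS, against 7591 without it, with 6 of the other integrins and tensins and 8 of the 10 described (Itgav was lost) and 81 of the partner genes (84 without it). Deviations of same-numbered libraries correlated at 0.0228 (PBS and I80), -0.0551 (PBS and DI150) and 0.213 (I80 and DI150). Not every pair was over 0.1, so the numbers were not taken to pair the libraries. No paired analysis was possible for DI150 because its columns carry the numbers 1 and 3. The log2 changes that turned their sign were of genes that did not pass in that comparison with all libraries. In I80 against PBS they were Itgb5 (-0.230 without PBS replicate 1 to 0.142 without PBS replicate 2) and Stard13 (0.0244 with quantile normalization, -0.134 to 0.0715 with 1 library left out). In DI150 against PBS they were Mdfi (0.0128 with TMM, 0.257 with quantile normalization, -0.162 to 0.121 with 1 left out) and Palld (-0.118 without PBS replicate 1 to 0.437 without PBS replicate 2). In DI150 against I80 they were Itgb8 (-0.369 to 0.0202 with 1 left out) and Sdc4 (-0.0056 with quantile normalization, -0.0116 to 0.0509 with 1 left out). Of the 10 described, Itgav in I80 against PBS, Tns3 in DI150 against PBS, and Itga3, Itgav, Itgb1 and Tns3 in DI150 against I80 fell short of the threshold in at least 1 alternative, and Itgb5 passed it in I80 against PBS without PBS replicate 1. Since the 10 were chosen on these contrasts, neither passing nor falling short is a result about them. No scaling moved the median of all genes by over 0.1. With 1 read worth 0.0376 to 0.0476 CPM, depth limits the folds of Itga5, Tns4, Col1a2 and Col5a1 in the treated lines and that of Acap1 in DI150.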
